A study of Mus musculus with 6 samples.

Results

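Smooth muscle contractile genes were followed in cultured aortic endothelial cells (EC) that received a Meis1 vector or a control vector. The 10 genes, Acta2, Tagln, Tagln2, Myh11, Cnn1, Cnn2, Tpm1, Tpm2, Myl9 and Actg2, were taken by symbol from a table of 54429 genes, and all were present. The set was chosen by the spread of Acta2 counts among the control libraries, so the levels of Acta2 are given below as a description and without a test. The 6 libraries came from primary aortic EC of adult wild-type C57BL/6 mice, 3 transduced to overexpress Meis1 (Meis1-OE) and 3 with a vector carrying YFP alone (YFP-CTRL), and they measure total RNA after ribosomal RNA was depleted. The EC were a purchased primary culture, the vectors were lentiviral, and the mice or cell lots behind each replicate are not given in the sources used here. Cells of both groups were exposed to virus for 48 h, taken as YFP+CD31+VEC+ cells in a sort at 72 h, and grown to confluency again before RNA was taken, so each library is a sorted and then expanded culture. Libraries carry the letters A, B and C of the deposited table, and 3 values given for a group stand in that order. They held 34176592 to 47956569 reads counted in genes, so a floor of 3 counts was 0.0626 to 0.0878 counts per 1000000 counted reads (CPM).

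Contraction of smooth muscle runs on actin filaments pulled by myosin. Acta2 and Actg2 encode the smooth muscle actins, Myh11 the smooth muscle myosin heavy chain and Myl9 a regulatory light chain of myosin, while tropomyosins (Tpm1, Tpm2), calponins (Cnn1, Cnn2) and transgelins (Tagln, Tagln2) bind along the actin filament. In the aortic wall these proteins mark the muscle cells of the media, but Tpm1, Cnn2 and Tagln2 are also made in many non-muscle cells. Many genes of this group are controlled by serum response factor (SRF), which binds the CArG box, a short motif in which A and T bases lie between a pair of C and a pair of G.

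The genes fell into 3 levels in these EC. Tagln2, Tpm1 and Cnn2 were abundant and together took 98.2% of all reads counted in the 10 genes. Acta2 was low to moderate and depended on the library. Tagln, Myh11, Cnn1, Tpm2, Myl9 and Actg2 never exceeded 29 counts in a library, and 5 of these 6 genes had at most 15. Relative to transcript length, the mean level in YFP-CTRL EC was 74.95 TMM-normalized CPM per kilobase for Tagln2, 37.3 for Tpm1, 24.8 for Cnn2, 4.16 for Acta2 and between 0.0165 and 0.188 for the other 6. In Meis1-OE EC the means per kilobase were 104.3 for Tagln2, 33.3 for Cnn2, 25.7 for Tpm1, 1.07 for Acta2 and at most 0.0906 for the other 6. Tagln2 was above both other abundant genes in every library on this scale. Tpm1 and Cnn2 overlapped in YFP-CTRL EC, where Tpm1 ran from 27.7 to 44.8 and Cnn2 from 10.8 to 43.9 CPM per kilobase, and did not overlap in Meis1-OE EC, where Cnn2 was at 29.9 or more and Tpm1 at 27.2 or less.

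The vector gene itself separated the groups, with 135325 to 157828 Meis1 counts in Meis1-OE libraries and 39 to 85 in YFP-CTRL libraries. Both sorting markers were detected in every library. Pecam1 (CD31) was at 769 to 1161 CPM in YFP-CTRL and 804 to 1004 CPM in Meis1-OE EC. Cdh5 (VEC) was at 1784 to 2628 CPM in YFP-CTRL and 1182 to 1452 CPM in Meis1-OE EC, without overlap. Its log2 fold change of -0.70 narrowly missed the threshold set below (edgeR adjusted p = 0.0535). Of 9 endothelial genes, Vwf was higher (3.12, edgeR adjusted p = 0.0120) and Tek lower (-0.78, edgeR adjusted p = 0.0351) in Meis1-OE EC. Over all tested genes edgeR called 4.14% higher and 2.73% lower at the same threshold. Kdr was at -1.23 (edgeR adjusted p = 0.0504). YFP-CTRL library C was the closest of its group to the Meis1-OE libraries over all tested genes (Pearson correlation of log2 CPM across genes 0.972 to 0.977, against 0.938 to 0.963 for libraries A and B). Mki67, a marker of cycling cells, was at 63.8, 205 and 589 CPM in YFP-CTRL EC and at 672, 660 and 628 CPM in Meis1-OE EC, and a score over 15 proliferation genes (mean log2 CPM) was 4.12, 5.19 and 6.40 against 6.45, 6.44 and 6.50. The libraries were compared with edgeR's quasi-likelihood test on the 16065 genes that passed its filter on low counts, with Benjamini-Hochberg adjustment, and a gene was called at an adjusted p under 0.05.

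The smooth muscle actins were first examined library by library. Acta2, the main actin of vascular smooth muscle, gave 7, 89 and 902 counts in YFP-CTRL EC. The Meis1-OE counts were 152, 64 and 46. YFP-CTRL libraries thus held both the lowest and the highest of the 6 values, and the Meis1-OE values lay between them. As a share of the library total, Acta2 was at 0.205 CPM in YFP-CTRL library A (95% Wilson interval 0.0992 to 0.423), 1.996 in B (1.62 to 2.46) and 18.8 in C (17.6 to 20.1). Library C supplied 90.4% of the Acta2 reads of the control group.

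After TMM normalization Acta2 was at 0.206, 2.18 and 19.85 CPM in YFP-CTRL EC, and at 3.325, 1.41 and 0.993 CPM in Meis1-OE EC. The mean was 7.41 ± 10.8 CPM in YFP-CTRL EC and 1.91 ± 1.24 CPM under Meis1-OE (SD, n = 3 each), and the SD of the control group was larger than its mean. The control mean was 3.88 times the Meis1-OE mean. Without YFP-CTRL library C the direction turned, because libraries A and B averaged 1.19 CPM and the Meis1-OE mean was then 1.60 times higher. A bulk library cannot tell apart fewer cells that express a gene and less RNA of it per cell.

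The range of Acta2 among control libraries was wide beside that of other genes. Among 15347 tested genes that had 5 or more counts in each library, the highest YFP-CTRL library was a median of 1.47 times the lowest. For Acta2 this ratio was 96.3, and 0 of the 15347 genes had a larger one. The ratio was 4.05 for Cnn2, which 4.08% of genes exceeded, 1.75 for Tagln2 and 1.62 for Tpm1, which 31.2% and 38.1% of genes exceeded. Among Meis1-OE libraries the ratio was 3.35 for Acta2, against a median of 1.17 over all genes, and 0.847% of genes exceeded it. Acta2 was chosen for this spread, so its rank is a description.

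**Figure D1:**
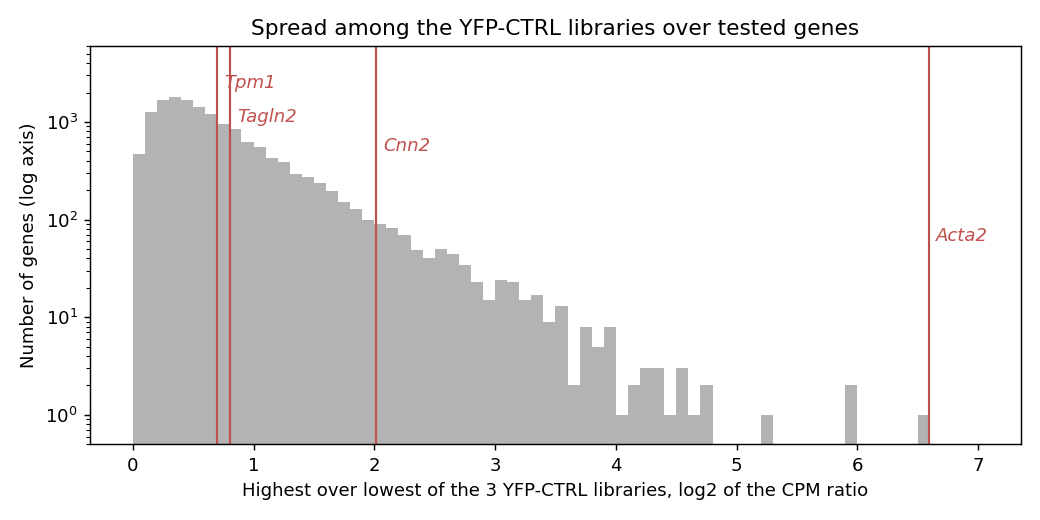
Histogram of the spread among the 3 YFP-CTRL libraries for 15347 tested genes, as the log2 ratio of the highest to the lowest CPM, with the number of genes on a log axis. Red lines mark the 4 genes of the set that passed the count filter, with Tpm1 and Tagln2 near the bulk of genes, Cnn2 at a ratio of 4.05 and Acta2 at the right end at 96.3.

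The region just before the transcription start of Acta2 is shown because SRF sites lie there in many smooth muscle genes. The 250 bases before the RefSeq start (GRCm38.p6, chr19:34255374-34255623, minus strand) are given 5′ to 3′, with capitals for matches to a CArG box in which 1 of the central bases is G or C.
Acta2: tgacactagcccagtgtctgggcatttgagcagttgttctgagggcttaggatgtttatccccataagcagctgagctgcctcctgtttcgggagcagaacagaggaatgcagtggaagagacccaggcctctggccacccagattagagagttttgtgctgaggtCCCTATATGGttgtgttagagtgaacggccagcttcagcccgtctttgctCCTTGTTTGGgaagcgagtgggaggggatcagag
Both matches, CCCTATATGG and CCTTGTTTGG, end 75 and 25 bases before the start. Such a near match occurred in 7.24% of the 32851 RefSeq promoter windows of this length, and an exact CArG box, which Acta2 lacked here, in 1.47%. A window was on hand for 7 of the 10 genes, and 2 of the 7 (Cnn2 and Myl9) held an exact box. The Meis-type motif TGACAG, searched on both strands, was in 1 of the 7 windows (Tpm2) and in 15.9% of all windows. The motif CATTCC, which TEAD factors bind, was in 3 of the 7 (Acta2, Tagln2 and Tpm1) and in 12.6% of all windows. These matches are letters in a sequence and do not show that a factor was bound.

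Actg2, the enteric smooth muscle actin, was at the limit of detection. Its counts were 1, 6 and 15 in YFP-CTRL EC and 0, 1 and 2 in Meis1-OE EC, so it did not rise above the floor of 3 counts in any Meis1-OE library. Acta1, the skeletal muscle actin and a close relative outside the set, was counted 10, 15 and 140 times in YFP-CTRL EC and 22, 6 and 9 times in the Meis1-OE libraries. YFP-CTRL library C thus held the highest count of each of these 3 actins. Actc1, the cardiac actin, did not share this, with 1, 2 and 0 counts in YFP-CTRL EC and 2, 0 and 0 in Meis1-OE EC. The coding sequences of the actins are similar, and reads may be shared between them, so the values of Acta2, Actg2 and Acta1 are uncertain to that extent. Actb was at 7439 ± 1923 CPM in YFP-CTRL EC and 8171 ± 226 CPM in the Meis1-OE group (SD, n = 3 each). The deposited counts of Acta2, Actg2 and Acta1 were whole numbers in all 6 libraries, so they show no fractional share of reads. Those of Actb and Actg1 were fractional in all 6.

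The transgelins differed by several orders of magnitude. Tagln, an early and abundant smooth muscle protein also called SM22, was counted 7, 2 and 29 times in YFP-CTRL EC and 2 times in each Meis1-OE library. All 3 Meis1-OE libraries and YFP-CTRL library B were within the floor of 3 counts, and library C was the highest here too. In that library 31.1 Acta2 reads were counted for each Tagln read. Tagln did not pass the filter on low counts and was not tested.

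Tagln2, the transgelin of non-muscle cells, was the most abundant gene of the set. Its counts were 2904, 4962 and 6793 in YFP-CTRL EC and 7776, 7757 and 7184 in Meis1-OE EC. These correspond to 85.5, 122 and 149.5 CPM against 170.1, 170.9 and 155 CPM, so every Meis1-OE library lay above every YFP-CTRL library, with YFP-CTRL library C closest to them. The mean was 119 ± 32.1 CPM in YFP-CTRL EC and 165 ± 8.88 CPM under Meis1-OE (SD, n = 3 each). The log2 fold change was 0.48 (standard error 0.20) and did not pass (edgeR's quasi-likelihood test, adjusted p = 0.180). Without YFP-CTRL library C it was 0.66 (adjusted p = 0.0284). Once the proliferation score entered the fit it was 0.09 (adjusted p = 0.758). The score barely varied among Meis1-OE libraries (6.44 to 6.50) and was above every control score there, so its slope rested on the controls. For this gene and those below, that fit cannot tell proliferation and the vector apart.

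The calponins showed the same division between a muscle and a broadly expressed form. Cnn1, the smooth muscle calponin, was counted 1, 0 and 13 times in YFP-CTRL EC and 5, 3 and 2 times in Meis1-OE EC. Its highest value was again in YFP-CTRL library C, and it was not tested.

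Cnn2, a calponin found in many cell types, was counted 906, 1973 and 4904 times in YFP-CTRL EC and 4369, 3493 and 3403 times in the Meis1-OE libraries. In CPM these were 26.7, 48.4 and 108 against 95.6, 77.0 and 73.5. YFP-CTRL library C was above all Meis1-OE libraries and libraries A and B were below all of them, so the groups overlapped. The log2 fold change of 0.43 was smaller than its standard error of 0.45, and it did not pass in edgeR (adjusted p = 0.585). Without YFP-CTRL library C it was 1.11 (adjusted p = 0.0252). Without library A it was 0.07 (adjusted p = 0.917), and once the proliferation score entered the fit it was -0.41 (adjusted p = 0.219). The promoter window of Cnn2 (GRCm38.p6, chr10:79988350-79988599, plus strand) is printed because it was 1 of 2 windows in the set with an exact CArG box, in capitals.
Cnn2: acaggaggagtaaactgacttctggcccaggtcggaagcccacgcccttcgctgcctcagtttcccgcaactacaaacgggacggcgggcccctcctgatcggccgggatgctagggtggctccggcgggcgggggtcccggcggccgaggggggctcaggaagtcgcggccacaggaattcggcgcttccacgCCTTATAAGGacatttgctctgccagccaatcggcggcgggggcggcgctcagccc
The box, CCTTATAAGG, ends 47 bases before the start.

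Of the tropomyosins in the set, Tpm1 was abundant and Tpm2 barely detected. Tpm1 was counted 2717, 4644 and 5887 times in YFP-CTRL EC and 3598, 3492 and 3105 times in Meis1-OE EC, or 79.99, 114 and 129.6 CPM against 78.7, 76.9 and 67.05 CPM. All Meis1-OE libraries were below all YFP-CTRL libraries, but YFP-CTRL library A and Meis1-OE library A differed by less than the spread within either group. The mean was 108 ± 25.3 CPM in YFP-CTRL EC and 74.2 ± 6.28 CPM under Meis1-OE (SD, n = 3 each). The log2 fold change was -0.54 (standard error 0.18, edgeR adjusted p = 0.124). Leaving out YFP-CTRL library A brought it past the threshold (-0.72, edgeR adjusted p = 0.0267), as did the proliferation score as a term of the fit (-0.87, adjusted p = 0.0224), and it was -0.40 without YFP-CTRL library C. Tpm2 was counted 7, 2 and 7 times in YFP-CTRL EC and 13, 10 and 4 times in Meis1-OE EC. The ranges of Tpm2 overlapped, and it was not tested.

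**Figure D2:**
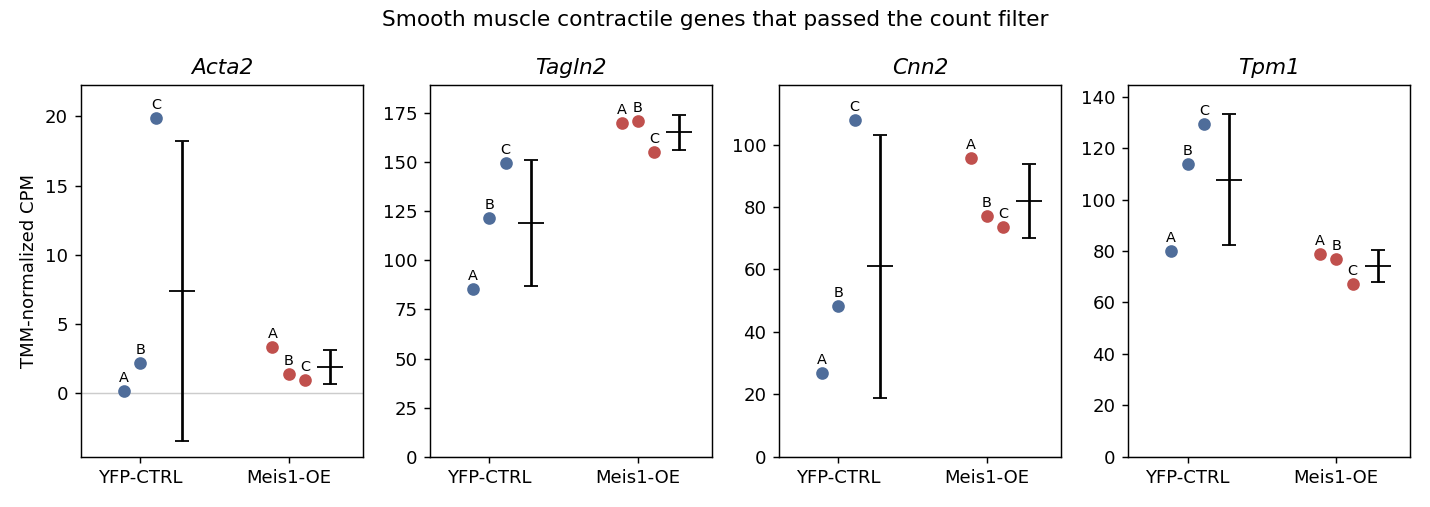
TMM-normalized CPM of Acta2, Tagln2, Cnn2 and Tpm1 in each library (points, with the letter of the library), with the mean and SD of 3 libraries beside them; the SD bar of Acta2 in YFP-CTRL EC runs below 0. YFP-CTRL library C has the highest value of its group in each panel, and the Meis1-OE libraries lie closer together than the YFP-CTRL libraries.

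The smooth muscle myosin genes were barely detected. Myh11, the heavy chain that defines differentiated smooth muscle, was counted 4, 5 and 4 times in YFP-CTRL EC and 4, 6 and 7 times in Meis1-OE EC. It did not share the high value of Acta2, Tagln, Cnn1 and Actg2 in YFP-CTRL library C. Myl9 was counted 1, 2 and 0 times in YFP-CTRL libraries and 1, 0 and 0 times in Meis1-OE libraries, all within the floor, so no difference was detectable at this depth. The promoter window of Myl9 (GRCm38.p6, chr2:156775214-156775463, plus strand) is shown with its exact CArG box and 1 near match in capitals, beside a gene that was not detectable in these EC.
Myl9: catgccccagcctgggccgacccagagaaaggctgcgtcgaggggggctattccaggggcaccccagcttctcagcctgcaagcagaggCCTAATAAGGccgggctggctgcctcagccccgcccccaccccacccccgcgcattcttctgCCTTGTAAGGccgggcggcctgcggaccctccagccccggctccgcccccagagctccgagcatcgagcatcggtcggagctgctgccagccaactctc
The exact box, CCTAATAAGG, ends 152 bases before the start and the near match, CCTTGTAAGG, ends 90 bases before it.

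**Figure D3:**
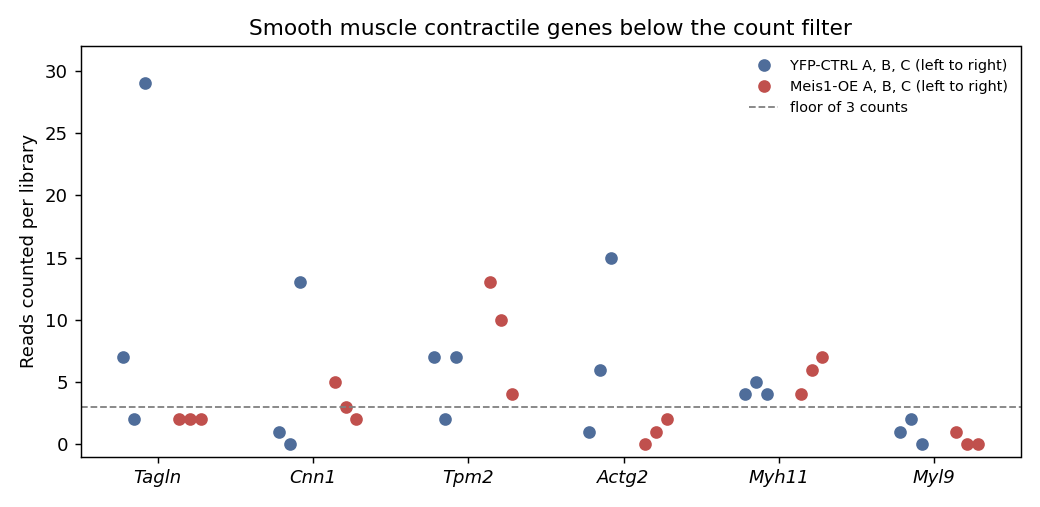
Reads counted per library for the 6 genes below the count filter, with the YFP-CTRL group in blue and the Meis1-OE group in red, each in the order A, B and C; the dashed line is the floor of 3 counts. Tagln, Cnn1 and Actg2 have their highest count in YFP-CTRL library C, at 29, 13 and 15, while Tpm2, Myh11 and Myl9 do not exceed 13 in any library.

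Across the set, 4 of the 10 genes passed the filter, and 3 of them were tested, since Acta2 was described only. At an adjusted p under 0.05 from edgeR, 0 of the 3 passed upward and 0 downward, where 4.14% of all tested genes were called higher and 2.73% lower (665 and 438 genes). On library totals without TMM factors the shares were 6.52% and 1.11% (1048 and 179 genes), and 0 of the 3 were called. Those totals moved the median log2 fold change of all genes from 0.01 to 0.15. At an unadjusted p under 0.05, 2 of the 3 passed, Tagln2 upward and Tpm1 downward, as 12.8% of all genes did upward and 13.4% downward. With DESeq2, which fitted all 9 genes other than Acta2, 0 of them passed the adjusted threshold. It gave an adjusted p to 18187 of the 27948 genes with a count, so those of the 9 with few reads could hardly be called. Of all genes with an adjusted p from DESeq2, 6.18% were higher and 6.13% lower. Without any filter on low counts, 0 of the 9 genes other than Acta2 passed, against 2.38% higher and 1.39% lower. Of these 9, 6 had too few reads for the filter of the main test, so their lack of a call says little. The libraries of the groups did not overlap for Tagln2 (higher, as for 17.2% of all tested genes) and Tpm1 (lower, as for 15.9%). Without YFP-CTRL library C, when 16.5% of all genes were called higher and 15.2% lower, 2 of the 3 were higher (Cnn2 and Tagln2). Without YFP-CTRL library A, when 3.73% were called higher and 2.63% lower, Tpm1 was lower. With the proliferation covariate, when 2.42% were higher and 2.02% lower, Tpm1 was lower as well.

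**Figure D4:**
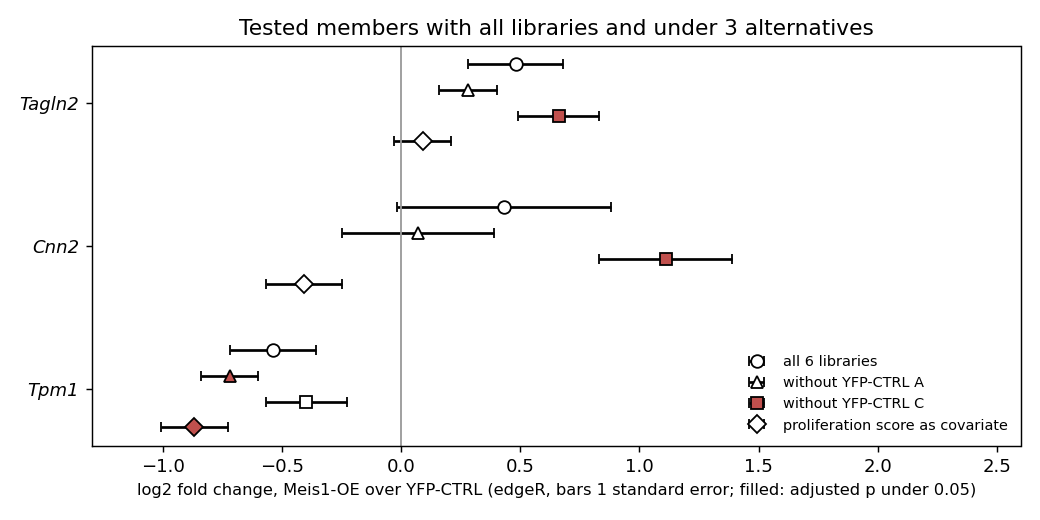
The log2 fold change of Meis1-OE over YFP-CTRL EC for Tagln2, Cnn2 and Tpm1 from edgeR, with bars of 1 standard error, for all 6 libraries, without YFP-CTRL library A, without library C and in a fit with the proliferation score. Filled symbols have an adjusted p under 0.05, which no gene reached with all 6 libraries; Cnn2 runs from 1.11 without library C to -0.41 with the covariate.

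Tagln2, Cnn2 and Tpm1 had their lowest control value in library A and their highest in library C, an order found in 25.6% of all tested genes. Acta2 had it too, but was chosen by its control values. Mki67 had the same order, as did 13 of 15 proliferation genes and 2 of 9 endothelial genes. Of the lists described below, 8 of 11 further smooth muscle genes, 8 of 11 relatives and 5 of 12 SRF pathway genes had it. The proliferation covariate could not tell cell growth and the vector apart, and the part of cell growth in these values was not otherwise tested. Markers of other cell types did not move together across the control libraries. Summed over 7 fibroblast genes the level was 33.4, 49.5 and 16.1 CPM in YFP-CTRL EC and 11.9 to 12.0 CPM in Meis1-OE EC, nearly all of it Pdgfra, with Lum and Thy1 at 0 in every library. In YFP-CTRL EC Pdgfra was thus lowest in library C, while Col1a2 was counted 0, 0 and 13 times and so was detected in library C alone of that group. Col1a1 was counted 4, 8 and 6 times there, Col3a1 1, 7 and 7 times, and Dcn 0 times. Over 6 pericyte genes, led by Pdgfrb, the sum was 1.53, 3.19 and 2.38 CPM in the control libraries and 3.48 to 4.23 CPM in Meis1-OE EC, with Kcnj8 at 0. In the controls Notch3 was highest in library C (0.324, 0.270 and 0.550 CPM). Abcc9 was lowest in that library (5, 16 and 1 counts). Cspg4 was counted 3, 6 and 3 times in the controls and Rgs5 0 times. Over 7 macrophage genes it was 0.383, 0.319 and 0.506 CPM and, in Meis1-OE EC, 0.503 to 1.45 CPM. Of these, Lyz2 was counted 8, 8 and 7 times in the control libraries, too few reads to give an order. Csf1r was counted 1, 4 and 12 times there (0.0294, 0.0980 and 0.264 CPM) and Fcer1g 4, 1 and 4 times, while C1qa, C1qb, Tyrobp and Adgre1 were at 0. The part of other cell types in the Acta2 values was not tested.

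The other genes of the contractile apparatus were then counted from lists. Of 16 further smooth muscle genes, 11 passed the filter and 1, Des, was higher in Meis1-OE EC, while 0 were lower (also 0 at an unadjusted p under 0.05 and 0 by DESeq2). Over all tested genes edgeR called 4.14% higher and 2.73% lower, with 13.4% lower at an unadjusted p under 0.05 and 6.13% lower by DESeq2. Their median log2 fold change was -0.02, against 0.01 over all tested genes. Des encodes desmin, the intermediate filament protein of muscle. It was counted 20, 18 and 24 times in Meis1-OE EC and 0, 2 and 2 times in YFP-CTRL EC. Against a floor of 3 counts per control library this was at least 5.94-fold higher (edgeR adjusted p = 0.0150). Des passed the filter on low counts through its Meis1-OE libraries alone. A gene as low in both groups as Des was in YFP-CTRL EC would not have been tested, so the filter favored this call. The level was low, at 0.451 ± 0.0619 CPM (SD, n = 3), and the call was lost when any 1 Meis1-OE library, or library B of YFP-CTRL, was left out (edgeR adjusted p 0.0578 to 0.0850) and with the covariate (0.0900).

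Several genes of this list were abundant in both groups. Cald1 (caldesmon), the most abundant, was at 330 ± 149 CPM in YFP-CTRL EC and 467 ± 9.63 CPM under Meis1-OE (SD, n = 3 each). Its log2 fold change was 0.50 (edgeR adjusted p = 0.321). Smtn (smoothelin) was at 149 ± 63.6 and 213 ± 18.5 CPM, and its log2 difference was 0.52 (adjusted p = 0.289). Without YFP-CTRL library C both passed upward, at 0.89 each (adjusted p = 0.0146 and 0.0113 from edgeR), and with the covariate both were near 0 (-0.10 and -0.04). Mylk, the kinase that activates the myosin light chain, was at 75.0 ± 21.3 and 77.5 ± 3.62 CPM, and its log2 fold change of 0.05 turned to -0.18 without YFP-CTRL library A. Lmod1, Pln and Kcnmb1 did not exceed 3 counts in any library.

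Relatives of the contractile genes outside the set ranged from the floor to very high levels. Of 14 actin, myosin, tropomyosin, calponin and transgelin genes, most of them non-muscle forms, 11 passed the filter. edgeR called 0 of the 11 in either direction, against 4.14% higher and 2.73% lower over all tested genes. At an unadjusted p under 0.05 it was also 0, against 12.8% higher and 13.4% lower. With DESeq2, 0 were called as well, against 6.18% higher and 6.13% lower. With so few genes, counts of 0 do not show that these genes were unchanged. The median log2 fold change of the 11 was -0.04. Actc1 (cardiac actin) and Myh14 did not exceed 3 counts in any library, and Tagln3 did not exceed 8. Per kilobase and in YFP-CTRL EC, Actb was at a mean of 3875 CPM against 4.16 for Acta2, the non-muscle heavy chain Myh9 at 318 against 0.0165 for Myh11, and Tpm3 and Tpm4 at 247.5 and 252 against 37.3 for Tpm1.

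The pathway known to control many of these genes runs from RhoA and its kinases through actin to the MRTF coactivators and SRF. Of 13 genes of this pathway and its targets, 12 passed the filter. edgeR called 0 of the 12 in either direction, against 4.14% higher and 2.73% lower over all tested genes. At an unadjusted p under 0.05, 2 were higher (Mkl2 and Vcl) and 1 lower (Rock2), where 12.8% of all tested genes were higher and 13.4% lower. The median log2 fold change was 0.12. Srf was at 55.8 ± 4.44 CPM in YFP-CTRL EC and 48.7 ± 4.34 CPM under Meis1-OE (SD, n = 3 each). Its log2 fold change was -0.19 (adjusted p = 0.344). Myocd, which encodes myocardin, the muscle-specific partner of SRF, was counted 0, 8 and 0 times in YFP-CTRL EC and 4, 10 and 7 times in Meis1-OE EC, and was not tested. YFP-CTRL library C, with the most Acta2 reads, thus had no Myocd read, which allows up to 0.0626 CPM.

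Mkl2, which encodes the coactivator MRTF-B, was at 92.8 ± 9.49 CPM in YFP-CTRL EC and 130 ± 13.4 CPM under Meis1-OE (SD, n = 3 each). All its Meis1-OE libraries were above all control libraries, as for 17.2% of all tested genes. Its log2 change was 0.49 (edgeR adjusted p = 0.0681, and 0.0156 on library totals). Rock2, a RhoA kinase, showed a log2 change of -0.51 (edgeR adjusted p = 0.0743, and 0.0413 from DESeq2). It was lower in every Meis1-OE library than in any control library, as for 15.9% of all tested genes. Vcl, the SRF target vinculin, showed a log2 change of 0.65 (adjusted p = 0.169), passed upward without YFP-CTRL library C (adjusted p = 0.00452) and was at 0.13 with the covariate (adjusted p = 0.6004). Flna (filamin A), the most abundant gene of this list, was at 1327 ± 121 and 1404 ± 101 CPM (SD, n = 3 each). Its log2 fold change was 0.08 (edgeR adjusted p = 0.706).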

How the data were processed

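For 6 libraries of ribodepleted RNA, the table that the authors deposited holds estimated counts, a value for each gene and library without normalization, with genome build mm10 per the submitters' processing notes. The aligner, the counting tool and the annotation are not given in the sources used here. Counts were rounded to whole numbers. Conditions came from the labels, whose replicate numbers are not tied to the letters of the columns.

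edgeR 4.0.16 (TMM, filterByExpr, quasi-likelihood test) in R 4.3.3 was the main test, fitted over all genes, with DESeq2 1.42.0, other scalings and filters, a robust fit, a proliferation covariate, the column letter as a block and each library left out as alternatives. Standard errors came from the F statistic. Both tools were tested on simulated data. CPM per kilobase used the longest coding transcript of GENCODE vM1 (NCBIM37). Promoters were RefSeq sequences of GRCm38.p6, and 7 of the 10 genes had one. Mrtfa, Mrtfb, Ccn1 and Ccn2 were found under older symbols (Mkl1, Mkl2, Cyr61 and Ctgf).

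The genes and lists were chosen with earlier results of these data known. Named from the lists were, by rule, genes past the threshold among further smooth muscle genes, relatives and SRF pathway genes, the most abundant gene of each list, Myocd, the sorting markers and Mki67. Smtn, Mylk, Synm, Ppp1r12b, Acta1, Myh9, Tpm3, Tpm4, Srf, Mkl2, Vcl, Rock2, Cyr61, Vwf, Tek, Kdr, Col1a1, Col1a2, Col3a1, Dcn, Notch3, Abcc9, Cspg4, Rgs5, Csf1r, Fcer1g, Actc1, Myh14 and Tagln3 were named after their values were seen. Intervals and floors cover counting error only. The paper calls the replicates independent. The tests set the group difference against variation between these cultures of purchased cells, and variation between mice cannot be judged from them.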

Additional observations from a re-analysis of the deposited data

How the results depend on the processing

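With 3 libraries a group and a control group that spread widely, these data limit what can be said of single genes. Genes under the filter of the main test entered the fit without a filter and the DESeq2 fit. When YFP-CTRL library A was left out, a further set member also passed the filter. With single libraries left out, the number of tested set members called lay between 0 and 2 for higher and between 0 and 1 for lower genes, and over all genes between 115 and 2717 higher and between 16 and 2498 lower. The lowest counts came without Meis1-OE library B and the highest without YFP-CTRL library C. The calls among further smooth muscle genes were then 0 to 3 higher, and those of the SRF pathway 0 to 2 higher and 0 to 1 lower. Without a library the log2 fold change of Mylk ran from -0.18 to 0.21, of Actb from -0.05 to 0.32 and of Synm from -0.78 to 0.27, the first 2 turning without YFP-CTRL library A and Synm without library C.

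With the proliferation score as a covariate, 388 genes were higher and 324 lower over all genes, and 1 gene of the set (Tpm1) was lower. Among further smooth muscle genes 0 were then higher and 2 lower (Synm and Ppp1r12b), 1 relative (Acta1) was lower and 1 SRF pathway gene (Cyr61) was higher. In that fit Cnn2 turned to -0.41, Cald1 to -0.10, Smtn to -0.04, Mylk to -0.36, Actb to -0.24 and Flna to -0.05, none past the threshold. Library totals gave 1048 higher and 179 lower genes and 1 SRF pathway gene higher (Mkl2). DESeq2 gave 1124 higher and 1115 lower genes and 1 SRF pathway gene lower (Rock2). With at least 10 counts in every library, Des was not tested and 0 further smooth muscle genes were higher. The cause of these shifts was not tested.

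Whether the column letters pair the libraries is not stated, and the values left it unsettled. Deviations from the group means correlated at 0.267, 0.12 and 0.07 for letters A, B and C. Meis1-OE libraries A and B correlated best with the YFP-CTRL library of the same letter, and Meis1-OE library C with YFP-CTRL library B (0.214). As a replicate block the letter left 544 genes higher and 189 lower. It changed no call among the tested set members, the further smooth muscle genes, the relatives and the SRF pathway genes. DESeq2 size factors in edgeR and the robust fit changed no call among them either. Endothelial and other marker genes were not compared under these alternatives.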
